A study of Spermophilus dauricus with 30 samples.

Results

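A set of 21 identifiers had lower RNA counts in hibernation and in the arousals between torpor bouts than in summer, before hibernation or after it, in both hind limb muscles of the Daurian ground squirrel (*Spermophilus dauricus*). They were chosen from 27394 identifiers of a muscle RNA sequencing table by their group medians. Each of the 21 had a median normalised count of at least 100 in summer active (SA), pre-hibernation (PRE) and post-hibernation (POST) libraries. Each of these medians was at least 1.3 times both the hibernation (HIB) and the interbout arousal (IBA) median, and HIB and IBA differed by less than 1.5-fold. All of this had to hold in the SOL libraries and in the EDL libraries, which stand for soleus and for extensor digitorum longus in common usage. Normalised counts are raw counts divided by a median-of-ratios size factor of the library. The fall itself is therefore the criterion of choice, and it is described here without a test.

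The study sampled both muscles in all 5 states, with 3 libraries in each of 10 groups and 30 libraries in all. The labels give the genotype WT for every library and the same treatment entry, a spelling of hibernation, for all of them, the summer libraries included, so the states were taken from the titles and descriptions. They name skeletal muscle as the tissue and give no age, temperature or time within a bout. No label ties a library to an animal, so the replicate spread behind each p-value may be partly technical.

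Hibernators such as ground squirrels pass the winter in bouts of torpor, with a deeply lowered body temperature and metabolic rate, broken by short arousals in which they warm up again. Transcription and translation are known to be strongly slowed in torpor and to resume during arousal. Skeletal muscle of hibernators is known for keeping much of its mass through months of disuse. In rodents the soleus is a slow, oxidative postural muscle and the extensor digitorum longus a fast one. The identifiers are plain numbers that the files do not pair with gene names, so no function is given for any of the 21, and the tissue label could not be set against muscle marker genes. In bulk RNA, fewer cells of a type and less RNA per cell cannot be told apart.

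The libraries held 31442362 to 41972200 counts, and the 21 identifiers together took 0.0405% to 0.132% of them. Size factors ran from 0.747 in POST SOL replicate 1 to 1.40 in POST SOL replicate 3, and POST EDL replicate 3 had 1.297. The libraries with the number 3 after hibernation stood apart for this set, as described further on, and results that rest on them are given with and without them.

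In SOL the median over the 21 identifiers of the group medians was 715 normalised counts in SA, 814 in PRE and 758 in POST, against 366 in HIB and 416 in IBA. The EDL values were 689 in SA, 804 in PRE and 733 in POST, against 376 in HIB and 392 in IBA. The mean of the SA, PRE and POST medians was 1.41 to 4.86 times the mean of the HIB and IBA medians in SOL, with a median of 1.88. In EDL this ratio lay between 1.44 and 4.75, at 1.87 for the median member. The 21 stayed above 1 in both muscles when counts were scaled by TMM factors or by library totals. With totals the ratios started at 1.20 in SOL and 1.29 in EDL, where the median identifier shifted by -0.06 and -0.11 on the log2 scale.

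**Figure D1:**
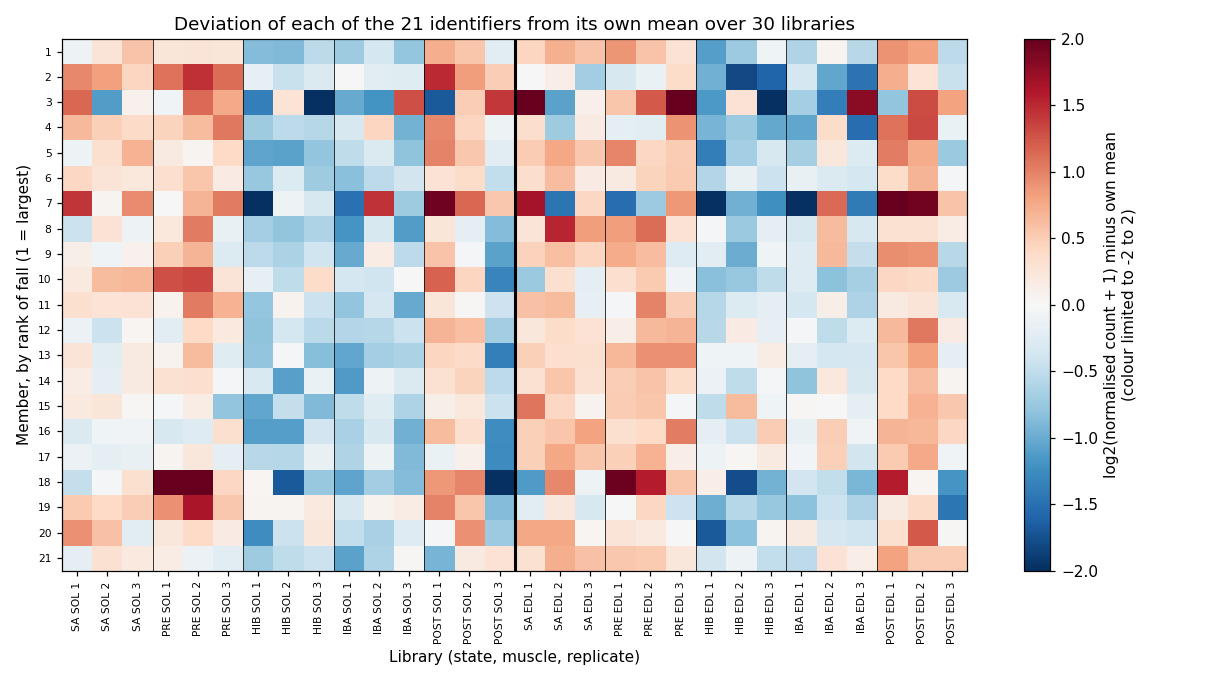
Each row is 1 of the 21 identifiers, ordered by the size of its fall, and each column 1 of the 30 libraries, SOL left and EDL right of the thick line. Colour gives the log2 of the normalised count plus 1, minus the identifier's own mean over 30 libraries. HIB and IBA columns are mostly blue, other than IBA EDL 2 with 12 of 21 cells above 0, and SA, PRE and POST columns are mostly red, while in the POST columns with the number 3 only 4 of the 21 cells in SOL and 9 in EDL are above 0.

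The choice was narrow at its threshold. The smallest margin of each identifier, the lowest SA, PRE or POST median over the higher of HIB and IBA in the weaker muscle, ran from 1.303 to 1.94, and it was 1.5 or more in 6 of the 21. The 3 identifiers just inside had margins of 1.303, 1.307 and 1.309, and the 3 just outside had 1.298, 1.290 and 1.284. Margins from 1.3 to 1.35 were held by 10 identifiers inside, and 13 outside had margins from 1.25 to 1.3. The largest HIB to IBA factor inside was 1.48, and the nearest outside was 1.61. No member sat near the count minimum: the lowest median among SA, PRE and POST was 160.1, and 13 identifiers that missed the minimum alone had lowest medians of 61.1 or less. The same conditions in SOL alone were met by 105 identifiers and in EDL alone by 114, so the 21 were 20.0% of the SOL list and 18.4% of the EDL list.

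Identifier 101973436 had the largest margin of the 21. In SOL it had 538, 688 and 854 normalised counts in SA, 681, 686 and 681 in PRE, and 959, 848 and 493 in POST. Its SOL counts were 314, 312 and 400.4 in HIB and 352, 453 and 336 in IBA. Each of the 9 SOL libraries of SA, PRE and POST lay above each of the 6 of HIB and IBA. In EDL it had 773, 947 and 860.2 in SA, 1061, 860.4 and 705 in PRE, and 1079, 1003 and 399 in POST. Its EDL counts were 268, 346 and 541 in HIB and 379.6, 599 and 392 in IBA. There the POST library with the number 3 fell within the range of HIB and IBA, and the other 8 libraries of SA, PRE and POST stayed above it.

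Identifier 101966808 had the highest mean count of the set, 5613 normalised counts over 30 libraries, although counts of different identifiers are not scaled to length. In SOL it had 6574, 6364 and 6465 in SA, 5512, 10813 and 8527 in PRE, and 6264, 5344 and 3946 in POST. It had 3080.2, 5527 and 3898 in HIB SOL and 3067, 4200.0 and 2608 in IBA SOL. The SA libraries lay close together, while HIB SOL replicate 2 was as high as the lowest PRE library. In EDL it had 7877, 8216 and 4684 in SA, 5132, 10506 and 7402 in PRE, and 5993, 6287 and 4291 in POST. HIB EDL stood at 3533, 4369 and 4617 and IBA EDL at 4143, 5707 and 3442. IBA EDL replicate 2 thus reached into the range of SA, PRE and POST, and the medians, but not the groups, were apart.

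**Figure D2:**
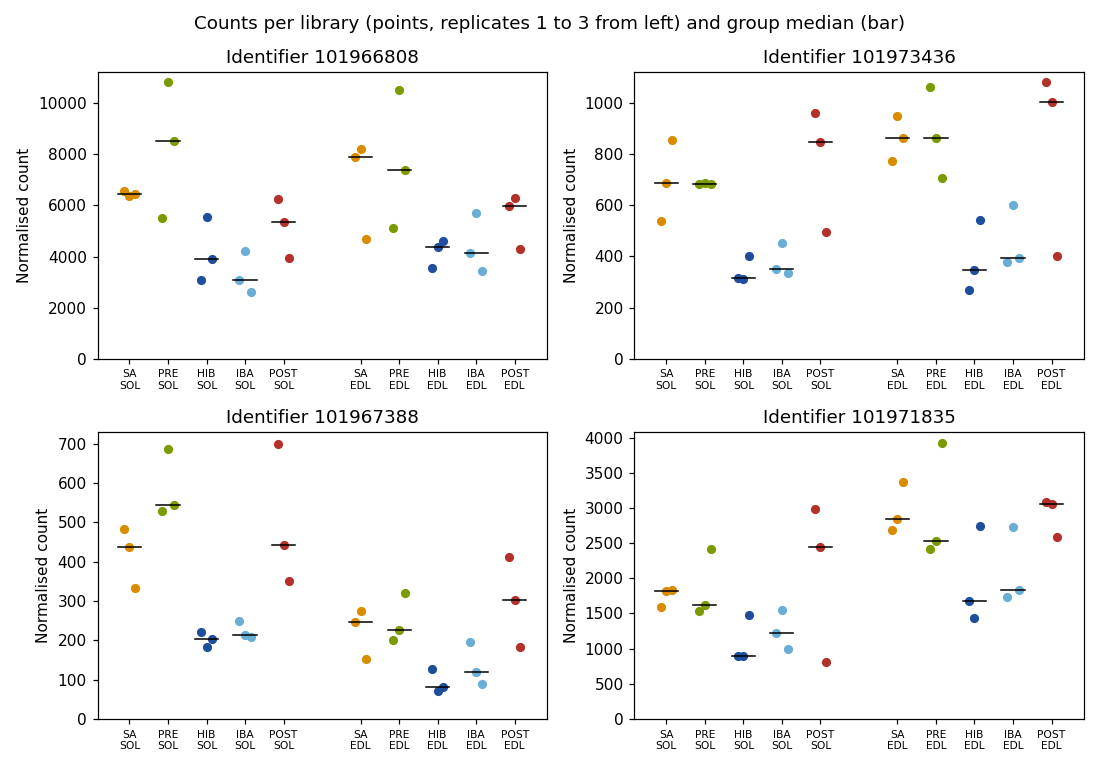
Normalised counts per library of the 4 identifiers given by number, by state and muscle, with replicates 1 to 3 from left to right in each group and a bar at the group median. The axis starts at 0. Medians of HIB and IBA lie below those of SA, PRE and POST in every panel, and single libraries overlap.

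Overlap of this kind was the rule in the set. In SOL every SA, PRE and POST library lay above every HIB and IBA library for 3 of the 21, a condition met by 0.0889% of 15747 identifiers with a mean of at least 10 normalised counts. In EDL this held for 1 of the 21, against 0.191% of all. The rule for the set used the same contrast, so nothing is read from these counts. Without the POST library numbered 3 of the muscle, there were 5 members in SOL and 6 in EDL. The condition was then met by 0.476% and 0.597% of all identifiers, and nothing is read from these counts either.

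Replicates of a group spread widely for some members. The within-group SD of the log2 values was 0.45 at the median of the set, from 0.26 to 1.34, and 0.36 at the median of the 15747 identifiers. The highest SD belonged to the identifier ranked 3 by its margin. Its SOL counts were 4386, 911 and 2089 in SA, 767, 2391 and 318 in HIB, and 987, 861 and 4816 in IBA. In EDL it had 9626, 939.7 and 2120.0 in SA, 889, 2412 and 284 in HIB, and 1229, 759 and 6938 in IBA. IBA replicate 3 was higher than all SA libraries in SOL and higher than 2 of the 3 in EDL, so only the median of IBA was low. The identifier ranked 7 behaved in the same manner with another library, as IBA replicate 2 held 10415 in SOL and 8383 in EDL while the other IBA libraries held 728 to 2327. The tightest member, ranked 6, had an SD of 0.26. It stood at 800.0, 715 and 696 in SA SOL, at 355, 495 and 366 in HIB SOL, and at 337, 416 and 467 in IBA SOL.

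Departures from the group mean were shared between the muscles. Over the 15 same-numbered SOL and EDL pairs, the correlation of a member's within-group deviations lay between 0.23 and 0.94. It was 0.78 for the median of the 21 and 0.46 for the median of the 15747 identifiers. The lowest mean of a member was 173 normalised counts, while the 15747 identifiers reach down to lower counts. A median among identifiers of like counts was not computed, so the gap is not read as a trait of the set. The 15 pairs include those of POST, and this correlation was not recomputed without them. The members also deviated together: the mean correlation of the 210 pairs of members over the 30 libraries was 0.32, and 174 pairs were above 0. The mean over all pairs of the 15747 identifiers was 4.85e-04. These correlations are a description over libraries that share depth and scaling. Without the 6 POST libraries the mean over member pairs was 0.14, so the POST libraries carried much of it.

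The set was low again in POST SOL replicate 3, and in POST EDL replicate 3 it lay below the other SA, PRE and POST libraries of EDL. In SOL the median deviation of the members from their own mean was -0.52 on the log2 scale in POST replicate 3, against 0.57 and 0.43 in POST replicates 1 and 2. The 6 HIB and IBA libraries of SOL lay between -0.76 and -0.32, and the 8 other libraries of SA, PRE and POST between 0.19 and 0.63. POST SOL replicate 3 thus lay within the range of hibernation and arousal. In EDL the values were -0.08 in POST replicate 3 and 0.56 and 0.70 in replicates 1 and 2. The 6 HIB and IBA libraries lay there between -0.58 and 0.06, and the 8 others between 0.29 and 0.70. Of the HIB and IBA libraries of EDL only IBA replicate 2, at 0.06, was higher than POST replicate 3. In EDL that library thus stood between most HIB and IBA libraries and the other SA, PRE and POST libraries. POST replicate 3 was the lowest of its 3 libraries for 19 of the 21 members in SOL, where it was lowest for 34.8% of all identifiers, and for 19 in EDL, where it was lowest for 33.4%. At the median, a member stood lower by 0.98 in SOL and 0.75 in EDL in replicate 3 than in the mean of the other POST libraries, and the median identifier differed by 0.05 and 0.01.

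These libraries also had large size factors, which lower normalised counts. POST SOL replicate 1 had the smallest size factor of all libraries, 0.747, which raises its normalised counts and so adds to the gap in SOL. With library totals alone, replicate 3 was lowest for 15 members in SOL and 13 in EDL, against 13.6% and 12.4% of all identifiers. The median member then stood lower by 0.41 in SOL and 0.34 in EDL than in the other POST libraries, while the median identifier stood higher by 0.61 and 0.42. The rule used medians and so set no limit on the lowest POST library. It did ask for a high POST median, which favours members whose other POST libraries were high. The size of the gap between replicate 3 and those libraries is therefore partly set by the choice. The members deviated together, so their counts here are not independent of each other. The labels say nothing on how long after hibernation the POST animals were sampled. IBA replicate 2 was the highest of the 6 HIB and IBA libraries in both muscles, with a median deviation of 0.06 in EDL, where 12 of the 21 members were above their own mean, and of -0.32 in SOL.

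**Figure D3:**
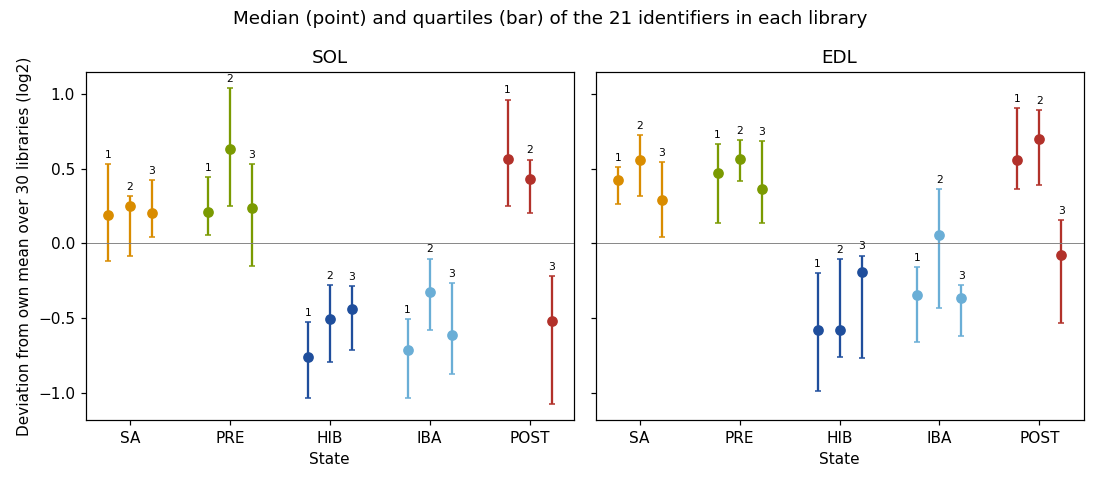
Median (point) and quartiles (bar) over the 21 identifiers of the deviation from their own mean over 30 libraries, on the log2 scale, for each library. Numbers are replicates. The HIB and IBA points lie at 0.06 or lower, and POST replicate 3 lies at -0.52 in SOL and -0.08 in EDL, below the other SA, PRE and POST libraries.

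HIB and IBA were held within 1.5-fold of each other by the choice of the set. Inside that limit the medians took no common direction. The IBA median was above the HIB median for 12 of the 21 members in SOL and 12 in EDL, and for 8 in both muscles. The factor between the higher and the lower of the pair was 1.12 in SOL and 1.10 in EDL at the median of the set.

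The 3 states in which the set was high were compared with each other, which the rule had not done directly. It did ask each of these states to lie above HIB and IBA, which left out identifiers that were low in any of them. The counts of members called or at a low p are therefore partly set by the choice. In edgeR's quasi-likelihood test, fitted over all identifiers in the 15 libraries of a muscle and adjusted by Benjamini-Hochberg, 0 of the 21 passed an adjusted p of 0.05 in any of the 6 comparisons. The share of all identifiers called was 0.0547% for PRE against SA, 0.87% for POST against SA and 0% for POST against PRE in SOL. In EDL it was 0%, 8.65% and 0.0675%. At an unadjusted p under 0.05 there were 1, 0 and 2 members in SOL, against 20.3%, 22.3% and 10% of all identifiers. In EDL there were 1, 1 and 0, against 14.5%, 26.4% and 12%. DESeq2 called 1 member in PRE against SA in SOL, where it called 4.67% of all. It called 0 members in the other comparisons, where its shares of all were 6.3% for POST against SA and 0.751% for POST against PRE in SOL, and 2.28%, 10.6% and 1.19% in EDL. The standard error of the log2 difference was 0.32 to 0.33 at the median of the set, and these results do not show that the high states were alike.

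The median log2 difference of the members between PRE and SA was 0.19 in SOL, with 15 of 21 higher in PRE, and 0.05 in EDL, with 13 of 21 higher. The median over all identifiers tested was 0.02 and 0.01. Between POST and SA it was -0.08 in SOL and -0.01 in EDL, with 9 and 10 members higher in POST. Without POST replicate 3 of the muscle these medians turned to 0.30 and 0.28. With that library left out of the SOL fit, 1 member was called higher in POST than in SA, the one ranked 12, by 0.78 ± 0.21 (SE, edgeR adjusted p = 0.0349), where 12.8% of all identifiers were called. Between POST and PRE the medians were -0.19 in SOL and -0.03 in EDL, with 7 and 8 of 21 higher in POST. Without POST replicate 3 of the muscle they were -0.04 and 0.19, with 9 and 16 higher, so the direction turned in EDL.

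The largest difference among the high states was that of the identifier ranked 18 between PRE and SA in SOL. It had 338, 463 and 589 normalised counts in SA SOL and 3082, 2552 and 623 in PRE SOL. All PRE values were higher than the SA values, and PRE replicate 3 lay close to them. The log2 difference was 2.16 ± 0.68 (SE, edgeR adjusted p = 0.124). DESeq2 called it (DESeq2 adjusted p = 0.0187), as did edgeR without POST SOL replicate 3 (edgeR adjusted p = 0.0424, with 3.25% of all identifiers called), and over all 20 edgeR alternatives the adjusted p ran from 0.0424 to 0.317. In EDL it had 213, 915 and 439 in SA and 1827, 1397 and 691 in PRE, and the groups overlapped.

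For identifier 101973436 the POST against SA difference was 0.13 ± 0.24 for the SOL libraries (SE, edgeR adjusted p = 0.776) and -0.06 ± 0.33 for the EDL libraries (edgeR adjusted p = 0.934). For 101966808 it was -0.33 ± 0.27 for SOL (edgeR adjusted p = 0.486) and -0.33 ± 0.28 for EDL (edgeR adjusted p = 0.487). Neither was called between any of the high states.

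The muscles were compared over all 30 libraries as the mean difference of the 5 states, a contrast the rule had not used. SOL and EDL differed for 10 of the 21 members at an edgeR adjusted p of 0.05, 3 higher in SOL and 7 higher in EDL. That is 47.6% of the set, while 28.9% of 16946 identifiers passed, 14.4% towards SOL and 14.4% towards EDL. The members were chosen with medians of at least 100 in the high states, while the identifiers tested reach down to lower counts. A share among identifiers of like counts was not computed. The 3 higher in SOL differed by 0.54 to 0.95 on the log2 scale and the 7 higher in EDL by -0.69 to -0.36. With same-numbered SOL and EDL libraries paired as blocks, 16 members passed, 5 towards SOL and 11 towards EDL. The share of all identifiers then was 40.7%, with 20.7% higher in SOL and 19.9% higher in EDL. The numbers deviate together in the data, but the labels do not say that they mark an animal.

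Identifier 101967388 differed most towards SOL and had the second largest margin of the fall. In SOL it had 484, 439 and 334 normalised counts in SA, 530.4, 687 and 544 in PRE, and 698, 443 and 350.2 in POST. HIB SOL stood at 222, 183 and 204 and IBA SOL at 249, 215 and 209. The EDL libraries held 247, 274 and 153 in SA, 199.9, 227 and 320.4 in PRE, and 412, 302 and 183 in POST, with 127, 70.3 and 81.3 in HIB and 196, 121 and 89.1 in IBA. The SOL libraries lay above the EDL libraries in SA, PRE, HIB and IBA, and in POST they overlapped. The difference was 0.95 ± 0.14 (SE, edgeR adjusted p = 9.72e-06), and 0.98 ± 0.09 with pairing (edgeR adjusted p = 4.24e-07).

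Identifier 101971835 differed most towards EDL. In SOL it had 1588, 1819 and 1839.9 in SA, 1542, 1615 and 2418 in PRE, and 2989, 2447 and 817 in POST. HIB SOL held 902, 899 and 1485 and IBA SOL 1225, 1546 and 989.7. The EDL libraries held 2690.5, 2842 and 3374 in SA, 2418, 2532 and 3922 in PRE, and 3082, 3057 and 2584 in POST, with 1679.7, 1429 and 2738 in HIB and 1734, 2723 and 1836 in IBA. EDL lay above SOL without overlap in SA, PRE and IBA, where the lowest PRE EDL library and the highest PRE SOL library nearly met, and the muscles overlapped in HIB and POST. The difference of SOL from EDL was -0.69 ± 0.15 (SE, edgeR adjusted p = 8.53e-04). The remaining identifiers given by number were not called without pairing: 101973436 stood at -0.23 ± 0.13 (edgeR adjusted p = 0.202) and 101966808 at -0.10 ± 0.13 (edgeR adjusted p = 0.613). With pairing, 101973436 was called at -0.21 ± 0.07 (edgeR adjusted p = 0.0293), and also without pairing when POST EDL replicate 3 was left out, at -0.31 (edgeR adjusted p = 0.0491). Over its 34 edgeR alternatives the adjusted p ran from 0.0293 to 0.365.

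**Figure D4:**
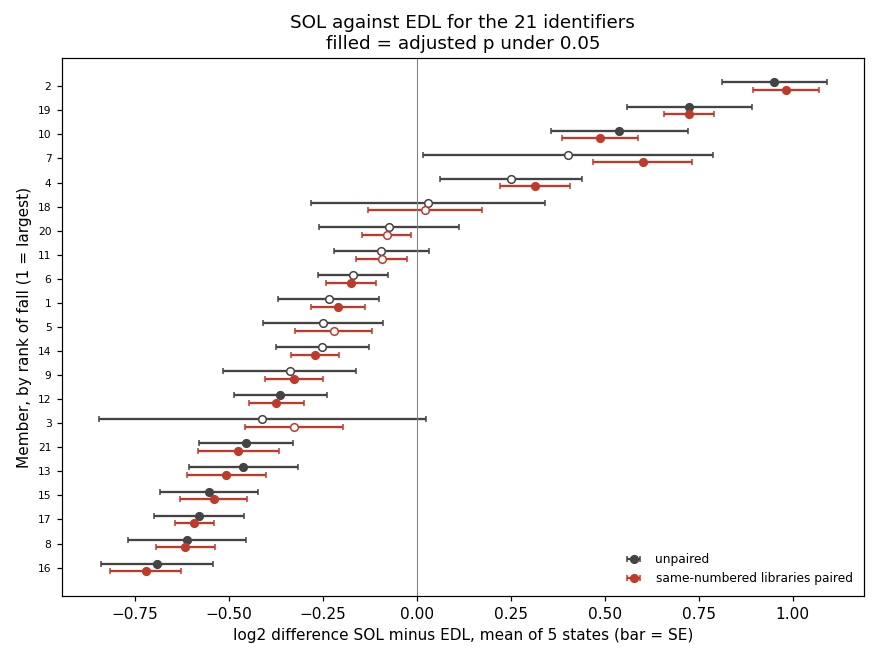
Log2 difference of SOL from EDL, mean of 5 states, for the 21 identifiers labelled by the rank of their fall, with the SE as bar, without pairing (grey) and with same-numbered libraries paired (red). Filled points passed an adjusted p of 0.05, 10 without and 16 with pairing.

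The size of the fall was set side by side for the muscles, as the difference, SOL from EDL, of the mean of HIB and IBA less the mean of SA, PRE and POST on the log2 scale. The rule asked for the fall in both muscles and so left out identifiers that fell in one alone, and these values are a description from which nothing is read. The differences lay between -0.26 and 0.46, at 0.02 for the median member and with a median SE of 0.30. For 101973436 the difference was 0.04 ± 0.27 (SE) and for 101967388 it was -0.03 ± 0.29. With same-numbered libraries paired these were 0.05 ± 0.15 and -2.75e-04 ± 0.20. The paired edgeR fit had 0 members and 6.6% of all identifiers at an unadjusted p under 0.05, with 0 members called. Without pairing the counts were as follows. edgeR called 0 of the 21 and 0% of all 16946 identifiers, with 0 members and 2.48% of all at an unadjusted p under 0.05. DESeq2 called 0 members and 0% of all. The choice of the set bears on these calls in the same way, so they do not show that the fall was equal in the muscles.

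The changes among the high states were also compared between the muscles, where the limits that the rule put on these states hold as well. The differences in PRE against SA, POST against SA and POST against PRE had 0 members called by edgeR and by DESeq2, at 0% of all identifiers in both tools. At an unadjusted p under 0.05 edgeR had 0 members each time, against 1.7%, 3.61% and 2.72% of all identifiers. With pairing there were 3, 1 and 6 of the 21 members at an unadjusted p under 0.05, against 4.36%, 8.89% and 7.74% of all, and 0 members called. The share of all identifiers called with pairing was 0%, 0% and 0.0118%.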

How the data were processed

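The deposited file holds raw counts, whole numbers per identifier and library, not normalised by the authors. The submitters' processing notes name HISAT2 2.0.4 and HTSeq 0.9.1. No source used here gives the genome build, the annotation, the strand or other settings of counting, so counts of overlapping or near-identical genes are uncertain. Of 27394 identifiers, 26378 are plain numbers, among which the set was sought, and 15391 without zeros gave the size factors. Depth was 31442362 to 41972200 counts per library. No replicates had identical columns, and their chi-square was at least 51.6 times its degrees of freedom.

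Tests used edgeR 4.0.16 in R 4.3.3 on counts: filterByExpr (minimum count 10, passed by all 21), TMM factors, the quasi-likelihood F test and Benjamini-Hochberg adjustment over all identifiers at 0.05. States were compared within the 15 libraries of a muscle, muscles over all 30. DESeq2 1.42.0 was an alternative. The SE is the log2 difference over the square root of F. Log2 values outside the fits have a pseudocount of 1. Members and lists were chosen with earlier results of these data known. Without gene names the gene lists were not run. Identifiers given by number are those of highest mean count and largest margin, and 2 called between the muscles; 10 members tied for the last 2 places, and the largest difference each way was taken after the values were seen.

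The SOL and the EDL library of 1 state and number correlated above 0.1 in all 15 pairs (0.13 to 0.63, deviations from group means), so the numbers pair the muscles, as read from the data. Across states the median was -0.02.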

Additional observations from a re-analysis of the deposited data

How the results depend on the processing

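How many identifiers met the rule depended on scaling and on single libraries: 20 with TMM factors (19 of them among the 21), 8 with library totals (6 among the 21), and 14 to 32 when each of the 30 libraries was left out in turn. The most came without POST SOL replicate 3, 32, and without both POST libraries numbered 3, an alternative chosen after seeing the data, it was 44, of which 20 were among the 21. The causes were not tested. The count of members called was 1 for PRE against SA in SOL with DESeq2. Leaving out single libraries gave 0 to 1 there and 0 to 1 for POST against SA in SOL, each time 1 without POST SOL replicate 3. The other 4 comparisons of high states and the 4 differences between muscles kept 0 members called in every setting run. SOL against EDL gave 16 members with the replicate block within a state, which removes differences shared by a pair, and 9 to 10 when single libraries were left out. In those left-out fits the identifiers called ran from 4531 of 17221 to 5581 of 17231. The replicate block across states, whose numbers do not pair, called 0 members in all 6 comparisons. For PRE against SA, POST against SA and POST against PRE it called 0.00608%, 0.195% and 0% of all identifiers in SOL. In EDL these shares were 0%, 6.63% and 0.0123%. Median differences moved by over the spread between libraries in 3 cases, for POST against SA without POST replicate 3: to 0.30 in SOL, to 0.28 in EDL, and to -0.32 for the difference of the muscles without the EDL library. Identifiers 101967388 and 101971835 kept their calls between the muscles in every setting. Single libraries held as few as 56 raw counts of a member, and the effect of depth on the calls was not tested.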
